A study of Mus musculus with 24 samples.

Results

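The 8 genes described here encode heteromeric amino acid transporters: the light chains Slc7a5, Slc7a7, Slc7a8, Slc7a9, Slc7a12 and Slc7a13 and the heavy chains Slc3a1 and Slc3a2. They were taken by symbol out of 55335 annotated genes, and their mRNA was read in all 24 whole kidneys of the series. Adult mice on a C57BL/6J background carried the genotype Pex5lox/lox/Pax8-rtTA/LC1 (6 males, cKOm, and 6 females, cKOf) or were littermates with Pex5lox/lox alone (6 males, Ctrlm, and 6 females, Ctrlf). All animals, controls included, drank doxycycline (DOX) for 2 weeks from 8 weeks of age and were studied 4 weeks after the end of it, at 14 weeks of age. The labels give the collection as ZT9 in the tissue protocol and name ZT3 in the growth protocol. The Pax8 promoter drives the DOX-dependent transactivator along the renal tubule and LC1 supplies the Cre, so Pex5, the cytosolic receptor that brings most matrix enzymes into peroxisomes, is targeted in tubule cells and not in the other cells of the kidney. The study proposes incomplete excision in cKOf, where it found residual full-length Pex5 mRNA and some PEX5 protein. It leaves sex-specific peroxisomal functions in the kidney possible. By its electron microscopy, proximal tubule cells of both cKOm and cKOf had virtually no peroxisomes. The male and female genotype effects below may therefore not rest on equal loss of Pex5.

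In a heteromeric transporter, an SLC3 heavy chain with 1 membrane span carries an SLC7 light chain to the plasma membrane, and the light chain does the transport. In the proximal tubule, Slc3a1 (rBAT) pairs in the brush border with Slc7a9 (b0,+AT), which takes up cystine and dibasic amino acids from the filtrate and whose loss causes cystinuria, and with Slc7a13 (AGT1), which carries aspartate, glutamate and cystine. On the basolateral side Slc3a2 (4F2hc) pairs with Slc7a7 (y+LAT1), which lets dibasic amino acids out, and Slc7a8 (LAT2), which exchanges neutral ones. Slc3a2 also pairs with Slc7a5 (LAT1), the large neutral amino acid exchanger of dividing and endothelial cells, while the heavy chain of Slc7a12 (Asc-2) is unknown.

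The 2 light chains with the largest differences between groups, Slc7a12 and Slc7a13, are related in sequence. Aligned over their coding sequences of 1398 and 1437 bases, they were identical at 867 of 1372 bases (63.2%), a value near the upper end of the 56.6% to 63.5% over all pairs of the 6 light chains. The stretch of 90 coding bases in exon 2 of each gene (GRCm38, chr3:14497268-14497357 and chr4:19823966-19824055, both on the plus strand) is shown because it bears on whether a read could be given to the wrong gene, and capitals mark its 66 identical bases.
Slc7a12: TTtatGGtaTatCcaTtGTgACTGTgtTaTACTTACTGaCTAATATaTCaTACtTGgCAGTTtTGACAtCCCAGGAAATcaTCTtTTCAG
Slc7a13: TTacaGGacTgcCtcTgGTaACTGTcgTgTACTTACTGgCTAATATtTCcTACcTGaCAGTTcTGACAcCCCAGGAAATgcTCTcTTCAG
No run of over 11 bases was shared by both coding sequences. Of all 50-base words in the transcripts of each member, at most 0.478% occurred in another gene for 7 members, and 3.42% did for Slc3a2.

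In GRCm38, with the gene identifiers of the files, Slc7a5 (ENSMUSG00000040010) lies at chr8:121881150-121907694 on the minus strand. Slc7a7 (ENSMUSG00000000958) at chr14:54369442-54417780 and Slc7a8 (ENSMUSG00000022180) at chr14:54722209-54781946 lie on the minus strand of the same chromosome. Slc7a9 (ENSMUSG00000030492) lies at chr7:35448796-35466036, Slc7a12 (ENSMUSG00000039710) at chr3:14480697-14505830 and Slc7a13 (ENSMUSG00000041052) at chr4:19818725-19842218, all on the plus strand. The heavy chain Slc3a1 (ENSMUSG00000024131) lies at chr17:85028376-85064236 on the plus strand, and Slc3a2 (ENSMUSG00000010095) at chr19:8706882-8723369 on the minus strand. Of the exon bases of Slc3a1, 26.5% overlap exons of Prepl on the opposite strand, and 232 exon bases of Slc7a7 overlap Oxa1l. The library kit marks strand but the strand setting of the counting is not given in the sources used here, so reads of these overlaps may be shared. Prepl averaged 41.9 ± 2.81 CPM in Ctrlm (a gene's count relative to the TMM-scaled total of its library, mean ± SD, n = 6, as for all values that follow) and its log2 fold change in males was 0.07 (adjusted p = 0.721, edgeR).

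The libraries held 19376152 to 28470831 reads on genes, and all 8 members were above the filter of 1 CPM in at least 1 kidney that left 16092 genes for the tests. Pex5 was 54.3 ± 4.63 CPM in Ctrlm and 43.7 ± 1.94 in cKOm (log2 fold change -0.31, edgeR adjusted p = 0.0219). In females it was 50.3 ± 6.97 and 43.6 ± 3.55 (-0.21, adjusted p = 0.177). The difference of the Pex5 effect between the sexes was -0.10 on the log2 scale and was not called (edgeR adjusted p = 0.754). The male call was lost without Ctrlm kidney 2 (adjusted p = 0.0656), without cKOm kidney 4 (0.0505) and with the hepatocyte covariate described next (0.0996), and a read does not tell a deleted from an intact allele outside the deleted exons. In these bulk samples, fewer cells of a type and less RNA per cell cannot be told apart. Summed over 8 hepatocyte genes, the level ran from 69.3 to 872 CPM (median 549) in Ctrlm, from 46.5 to 407 (median 67.6) in cKOm, from 43.5 to 107 in Ctrlf and from 43.1 to 102 in cKOf. Of these 8 genes, 2 were called lower in cKOm (Alb and Fgg) and 0 were called in females, so the members were also fitted with a hepatocyte score, the mean log2 CPM of these 8 genes in each kidney, as a covariate. Ctrlf kidney 1 stood apart in 4 interferon genes (summed 260 CPM against 88.3 to 103 in the other Ctrlf) and 3 leukocyte genes (55.6 against 17.01 to 20.7), and without it 0 members were called in females, as with it.

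In males, 5 of the 8 members were called by edgeR's quasi-likelihood test at an adjusted p under 0.05, where 9.05% of all genes tested were called. Slc7a12, Slc7a8 and Slc3a2 rose in cKOm (4.14% of genes were called higher), and Slc7a13 and Slc3a1 fell (4.9% lower). In females, 0 of the 8 were called (0.851% of all genes, 0.391% higher and 0.46% lower), with 1 member, Slc7a7, at an unadjusted p under 0.05 and 0 called by limma-voom or by DESeq2. The median log2 fold change of the 8 was 0.32 in males and -0.10 in females, beside 0.01 and 0.00 over all genes tested. In the same 5 members the male groups did not overlap in CPM, as in 7.38% of all genes, and in females 0 members were without overlap (0.559% of genes). The test of the difference of the genotype effect between the sexes called 1 member, Slc7a12 (2.31% of genes, 0.82% higher and 1.49% lower).

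**Figure D1:**
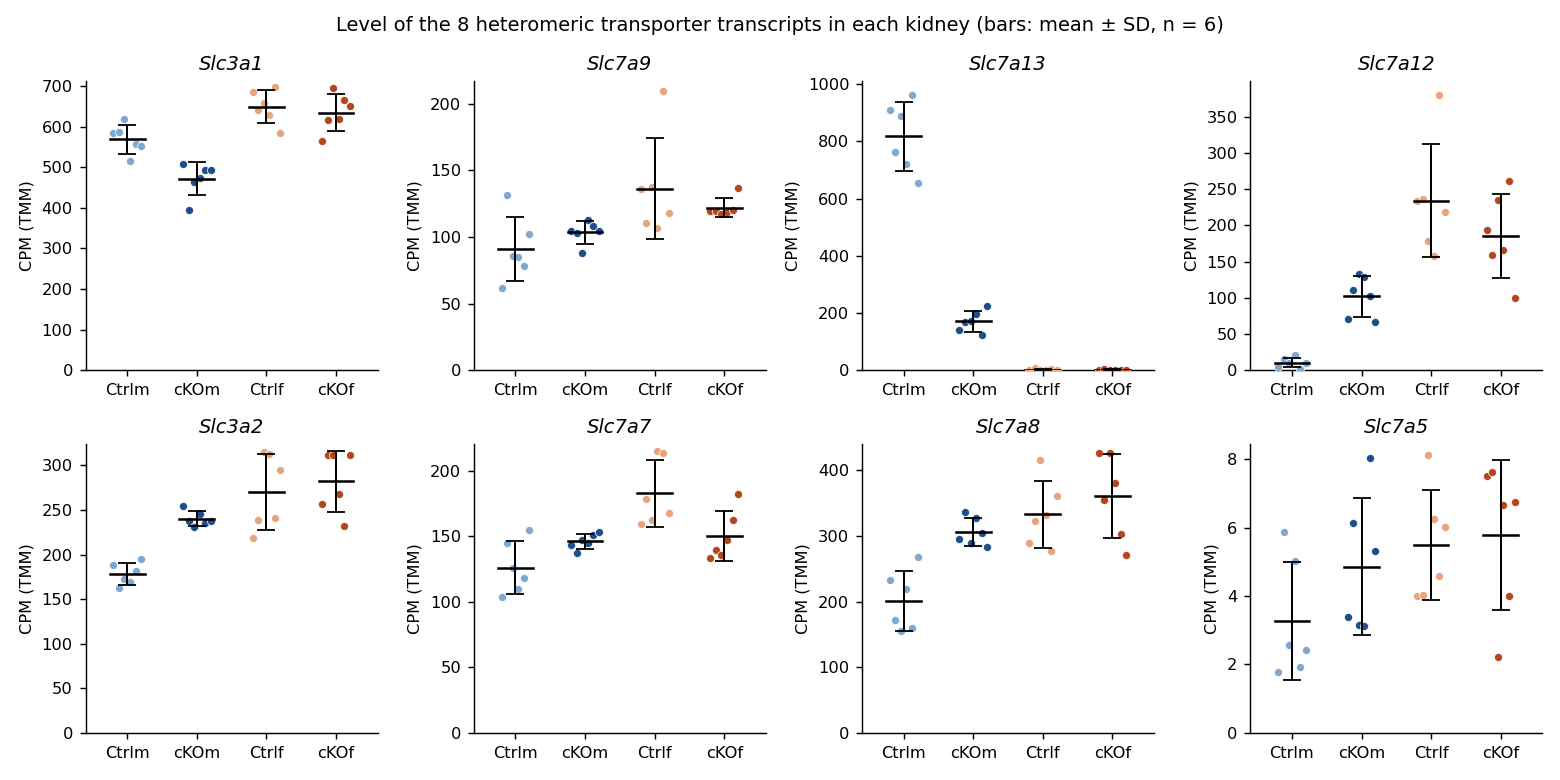
Level of each of the 8 members in CPM (counts relative to the TMM-scaled library total) in Ctrlm, cKOm, Ctrlf and cKOf, with 1 point per kidney and bars for the mean ± SD (n = 6 per group). Slc7a12 and Slc7a13 are the members whose male groups lie farthest apart, and Slc7a13 is close to 0 in all 12 female kidneys.

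Slc3a1, the heavy chain of the brush border, fell in cKOm. It ran from 515 to 618 CPM with a median of 572 in Ctrlm, and from 396 to 509 with a median of 483 in cKOm. Every cKOm kidney was below every Ctrlm kidney, by a small margin. The fold change was -0.27 on the log2 scale (SE 0.07, edgeR adjusted p = 0.0187), or 1.21-fold lower. In females Slc3a1 ran from 585 to 698 CPM (median 651) in Ctrlf and from 564 to 695 (median 635) in cKOf. The female groups overlapped nearly throughout, with a log2 fold change of -0.03 (95% confidence interval -0.18 to 0.11, adjusted p = 0.888). The male call was lost with the hepatocyte score as a covariate (log2 fold change -0.22, adjusted p = 0.199), without Ctrlm kidney 3 (adjusted p = 0.0546) and without cKOm kidney 2 (0.0641).

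Slc3a2, the heavy chain of the basolateral transporters, rose in cKOm, opposite to Slc3a1. It ran from 163 to 195 CPM (median 177) in Ctrlm and from 231 to 255 (median 238) in cKOm. The male groups did not overlap. The log2 fold change was 0.43 (SE 0.09, edgeR adjusted p = 0.00337), or 1.35-fold, and its adjusted p was at most 0.0437 over 33 alternatives. In females Slc3a2 ran from 219 to 315 CPM (median 267) in Ctrlf and from 232 to 312 (median 289) in cKOf. These groups overlapped, and the log2 fold change was 0.06 (95% confidence interval -0.12 to 0.25, adjusted p = 0.816). All 6 cKOm kidneys lay within the Ctrlf range. The difference of the genotype effect between the sexes was not called for either heavy chain (log2 -0.24, adjusted p = 0.274 for Slc3a1, and 0.37, adjusted p = 0.158 for Slc3a2).

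Among the brush border light chains, Slc7a13 fell in cKOm more than any other member. It ran from 653 to 962 CPM (median 826) in Ctrlm and from 123 to 225 (median 170) in cKOm. The lowest Ctrlm kidney was above the highest cKOm kidney by a wide margin. The log2 fold change was -2.26 (SE 0.36, edgeR adjusted p = 1.2e-04), or 4.79-fold lower, and it was called under all 33 alternatives. In females Slc7a13 was near the floor, from 0.667 to 6.01 CPM (median 1.36) in Ctrlf and from 0.0986 to 5.42 (median 0.903) in cKOf. The lowest cKOf kidney held 2 reads, under the floor of 3. The female groups overlapped, with a log2 fold change of -0.55 (95% confidence interval -1.58 to 0.49, adjusted p = 0.680) over 14 to 136 reads per Ctrlf kidney and 2 to 116 per cKOf kidney. Single kidneys set this female value, which was -1.56 (adjusted p = 0.0507) without cKOf kidney 2 and 0.02 (adjusted p = 0.993) without Ctrlf kidney 2. The difference between the sexes was -1.71 on the log2 scale and was not called (adjusted p = 0.181), with -2.28 and 0.0350 without Ctrlf kidney 2 and -0.70 and 0.658 without cKOf kidney 2, the highest kidney of each female group.

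Slc7a9, the b0,+AT light chain of cystine uptake, was not called in either sex. It ran from 61.7 to 132 CPM (median 85.7) in Ctrlm and from 87.6 to 113 (median 105) in cKOm. The Ctrlm range enclosed that of cKOm, and the log2 fold change was 0.19 (95% confidence interval -0.11 to 0.48, adjusted p = 0.608). In females it ran from 107 to 210 CPM (median 127) in Ctrlf and from 117 to 137 (median 120) in cKOf. Most of the Ctrlf spread came from kidney 5 at 210 CPM, and the log2 fold change was -0.16 (95% confidence interval -0.46 to 0.14, adjusted p = 0.667).

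Slc7a12, the light chain without a known partner, rose in cKOm and was the member with the largest fold change. It ran from 2.24 to 20.7 CPM (median 9.85) in Ctrlm and from 66.2 to 133 (median 107) in cKOm. No cKOm kidney was near the Ctrlm range. The log2 fold change was 3.25 (SE 0.34, edgeR adjusted p = 3.4e-07), or 9.52-fold, and it was called under all 33 alternatives. In females it was high in both genotypes, from 157 to 381 CPM (median 226) in Ctrlf and from 99.6 to 262 (median 180) in cKOf. The female groups overlapped, and the log2 fold change was -0.33 (95% confidence interval -0.96 to 0.30, adjusted p = 0.677). The genotype effect was larger in males by 3.59 on the log2 scale (SE 0.46, edgeR adjusted p = 2.5e-05).

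**Figure D2:**
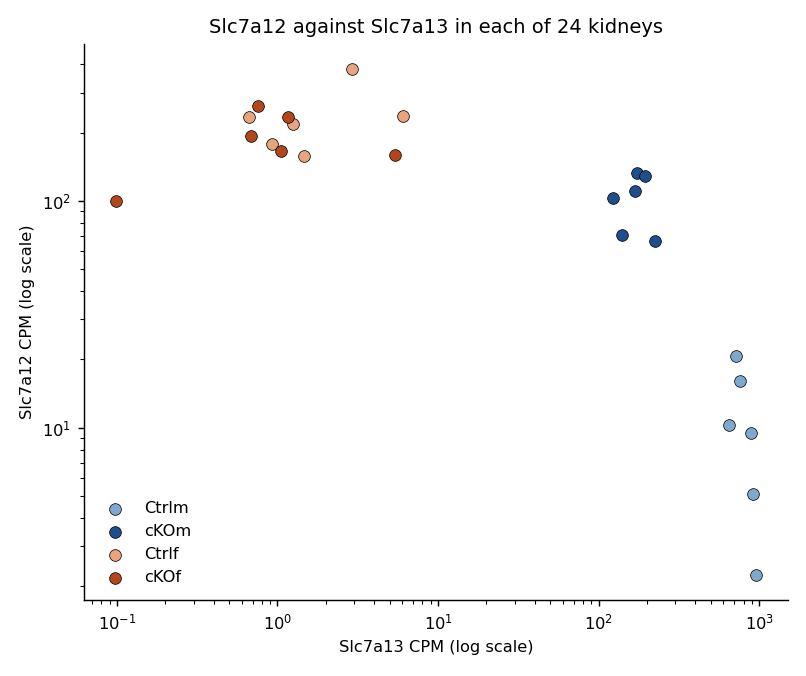
Slc7a12 against Slc7a13 in each of the 24 kidneys, both in CPM on logarithmic axes, with 1 point per kidney and 1 colour per group. The cKOm kidneys (median 107 CPM of Slc7a12 and 170 of Slc7a13) lie apart from the Ctrlm kidneys (9.85 and 826) and from the female kidneys, which have 6.01 CPM of Slc7a13 or less.

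Among the basolateral light chains, Slc7a8 rose in cKOm. It ran from 155 to 268 CPM (median 196) in Ctrlm and from 283 to 336 (median 300) in cKOm. The male groups did not overlap, and the log2 fold change was 0.61 (SE 0.13, edgeR adjusted p = 0.00399), or 1.52-fold. In females it ran from 277 to 416 CPM (median 328) in Ctrlf and from 271 to 427 (median 368) in cKOf. The female groups overlapped, with a log2 fold change of 0.11 (95% confidence interval -0.15 to 0.38, adjusted p = 0.755), and the male effect exceeded the female one by 0.49 (adjusted p = 0.200). The male call was lost with the hepatocyte score as a covariate (log2 fold change 0.49, adjusted p = 0.0736).

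Slc7a7, the y+LAT1 light chain that is mutated in lysinuric protein intolerance, had fold changes of opposite sign in the 2 sexes and passed the test in neither. It ran from 104 to 155 CPM (median 122) in Ctrlm and from 138 to 153 (median 146) in cKOm. The male groups overlapped, with a log2 fold change of 0.21 (95% confidence interval 0.01 to 0.42, adjusted p = 0.289). In females it ran from 160 to 215 CPM (median 173) in Ctrlf and from 133 to 182 (median 143) in cKOf, again with overlap, and the log2 fold change was -0.28 (95% confidence interval -0.49 to -0.08, adjusted p = 0.111). The difference of the effects between the sexes was 0.50 on the log2 scale (SE 0.14, adjusted p = 0.0612). The female change was called without cKOf kidney 6 (-0.35, adjusted p = 0.0324). The test between the sexes passed in 5 of 32 alternatives, by DESeq2 (0.0336) and without Ctrlf kidney 1, Ctrlm kidney 2, Ctrlm kidney 6 or cKOf kidney 6 (0.0226 to 0.0487).

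Slc7a5, the LAT1 light chain, was the member with the lowest level in the males. It ran from 1.78 to 5.87 CPM (median 2.5) in Ctrlm, from 3.13 to 8.03 (median 4.35) in cKOm, from 4.00 to 8.12 (median 5.30) in Ctrlf and from 2.21 to 7.62 (median 6.70) in cKOf. The 4 ranges overlapped. The log2 fold change was 0.56 in males (95% confidence interval -0.09 to 1.22, adjusted p = 0.418) and 0.07 in females (95% confidence interval -0.57 to 0.71, adjusted p = 0.951).

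**Figure D3:**
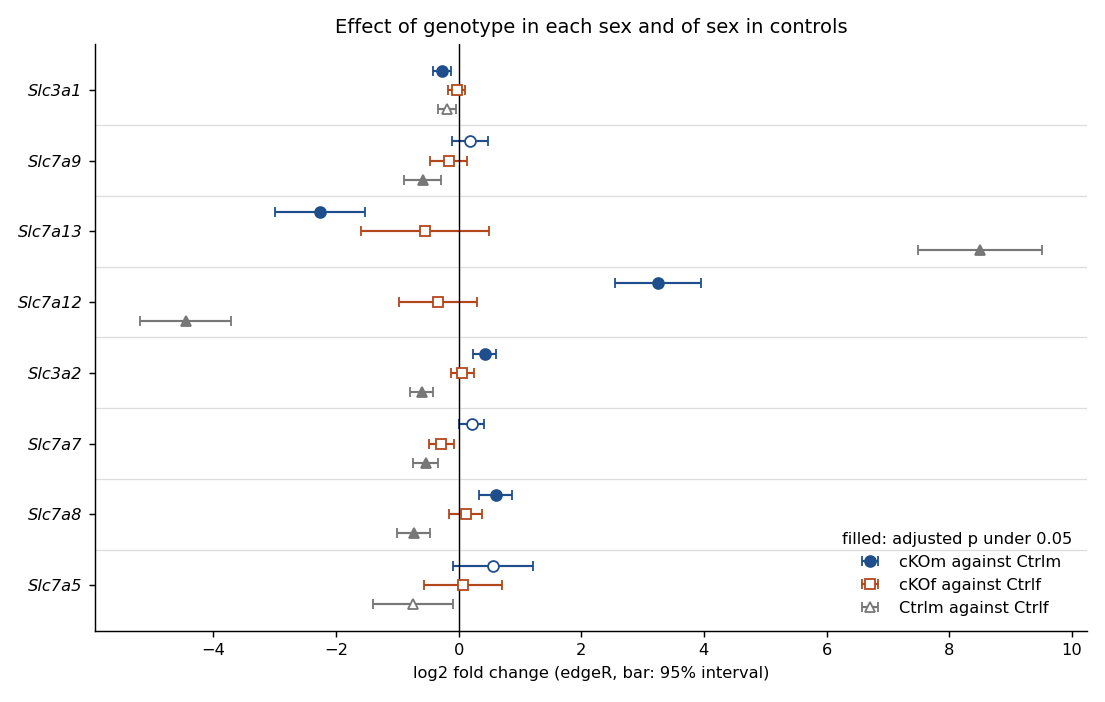
Log2 fold change of cKO over Ctrl for each member in males and in females, and of Ctrlm over Ctrlf, with 95% confidence intervals from edgeR's quasi-likelihood fit of all 24 kidneys. Filled symbols mark an adjusted p under 0.05. The male genotype values run from -2.26 (Slc7a13) to 3.25 (Slc7a12) and the female ones from -0.55 to 0.11. The values of Ctrlm over Ctrlf run from -4.45 (Slc7a12) to 8.51 (Slc7a13).

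An exact permutation test of the difference of mean log2 CPM, over all arrangements of 6 against 6 kidneys and without the model, gave the smallest p it can, 0.00216, in males for the 5 called members. Groups without overlap always give this value, so it restates the lack of overlap above. In males the exact test gave 0.0476 for Slc7a7, 0.126 for Slc7a5 and 0.180 for Slc7a9. In females the exact p was 0.0303 for Slc7a7 and at least 0.255 for the other 7. These are 16 two-sided tests and the p-values are not adjusted.

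Levels also differed between the sexes in the controls. Of the 8 members, 6 were called between Ctrlm and Ctrlf, where 15.7% of all genes tested were called. Slc7a13 was higher in males (8.17% of genes were called higher), at 817 ± 121 CPM against 2.20 ± 2.02 CPM, a log2 difference of 8.51 (SE 0.49, edgeR adjusted p = 5.6e-13). Slc7a12, Slc7a8, Slc7a7, Slc7a9 and Slc3a2 were lower in males (7.48% of genes were called lower). Slc7a12 was at 10.6 ± 6.83 CPM in Ctrlm and 234 ± 78.4 in Ctrlf, a log2 difference of -4.45 (adjusted p = 4.8e-10), and the other 4 differed by -0.73 (Slc7a8) to -0.53 (Slc7a7). The Ctrlm and Ctrlf kidneys did not overlap in 5 members (7.35% of genes): Slc7a13, Slc7a12, Slc7a8, Slc7a7 and Slc3a2. Slc7a5 (-0.74, adjusted p = 0.140) and Slc3a1 (-0.19, adjusted p = 0.0746) were not called, although Slc7a5 was called without Ctrlm kidney 2 (0.0410) and Slc3a1 without Ctrlf kidney 6 (0.0495), and the call of Slc7a9 (-0.58, adjusted p = 0.00665) was lost with the hepatocyte covariate (0.0999).

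Between cKOm and cKOf, 2 members were called (9.72% of all genes, 4.8% higher and 4.92% lower in males). Slc7a13 was 171 ± 36.9 CPM in cKOm and 1.53 ± 1.94 CPM in cKOf, a log2 difference of 6.79 (edgeR adjusted p = 2.6e-11). Slc3a1 was 472 ± 40.6 CPM in cKOm and 635 ± 45.5 in cKOf, a log2 difference of -0.43 (adjusted p = 7.0e-05). The cKOm and cKOf kidneys did not overlap for both of these and for Slc7a9, which was lower in cKOm (6.77% of genes). For Slc7a12 the difference was -0.87 (SE 0.31, adjusted p = 0.0667) and it was called in 4 of 32 alternatives, by limma-voom (0.0330) and without Ctrlm kidney 4, Ctrlm kidney 5 or cKOf kidney 6 (0.0273 to 0.0494). For Slc3a2 it was -0.23 (adjusted p = 0.0978), and it was called without cKOf kidney 5 (0.0424). The sex tests and the genotype tests share kidneys, so these values are only set side by side.

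Per kilobase of exon, which makes levels comparable between genes, the order of the 8 members differed between the groups. In Ctrlm Slc7a13 was highest at 381 ± 56.7 CPM per kb, then Slc3a1 at 251 ± 15.7 and Slc3a2 at 50.5 ± 3.50, without overlap between these 3 neighbours, by the whole exon length of each. Slc7a8 (40.2), Slc7a7 (38.1) and Slc7a9 (34.0 CPM per kb) followed, each overlapping with the one before it. Slc7a12 (6.11) and Slc7a5 (0.881) were lowest and overlapped with each other, and Slc7a12 did not overlap with Slc7a9. In cKOm Slc3a1 was highest at 208 ± 17.9 CPM per kb, without overlap with the next. Below it Slc7a13 (79.7), Slc3a2 (68.1), Slc7a8 (61.1), Slc7a12 (58.6), Slc7a7 (44.1) and Slc7a9 (38.6 CPM per kb) each overlapped with the neighbour in that order, and Slc7a5 was at 1.31. In both female groups Slc3a1 was first, at 286 ± 18 CPM per kb in Ctrlf and 280 ± 20.05 in cKOf, and Slc7a12 second, at 135 ± 45.0 and 107 ± 33.3. Slc7a5 and Slc7a13 were the last in both, at 1.48 and 1.03 CPM per kb in Ctrlf and 1.56 and 0.714 in cKOf, and overlapped with each other.

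Light chains were also set against their known heavy chain within each kidney, which removes the scaling between libraries. Per kilobase, Slc7a13 over Slc3a1 ran from 1.26 to 1.83 (median 1.51) in Ctrlm and from 0.266 to 0.484 (median 0.416) in cKOm. By the whole exon length of Slc3a1, all Ctrlm kidneys held more Slc7a13 and all cKOm kidneys less. If counting dropped the reads in the Prepl overlap, a length of Slc3a1 without it, an alternative chosen after seeing the data, gives 0.924 to 1.35 (median 1.11) in Ctrlm and 0.196 to 0.356 in cKOm, and the order in Ctrlm is then not the same in all kidneys. The difference between the groups does not use the length, and the ratio fell by 2.00 on the log2 scale (exact permutation p = 0.00216). That p is the smallest the test can give, and groups without overlap always give it. In females the ratio had a median of 0.00241 in Ctrlf and 0.00157 in cKOf (exact permutation p = 0.329). Slc7a9 over Slc3a1 was higher in cKOm by 0.50 on the log2 scale, from a median of 0.130 to 0.183, with overlapping kidneys (exact permutation p = 0.0173), and differed by -0.09 in females (exact p = 0.617). The difference in mean log2 CPM was 0.22 for Slc7a9, which was not called, and -0.27 for Slc3a1. Of the 10 two-sided tests in this family, unadjusted, these were the 2 with p under 0.05.

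The ratios to Slc3a2 did not pass. Slc7a8 over Slc3a2 differed by 0.20 on the log2 scale in males (exact permutation p = 0.147) and by 0.04 in females (exact p = 0.792). Slc7a7 over Slc3a2 differed by -0.20 in males (exact permutation p = 0.0931) and by -0.35 in females (exact p = 0.0563), with p under 0.05 in males without Ctrlm kidney 1 (-0.28) and in females without cKOf kidney 5, Ctrlf kidney 3 or Ctrlf kidney 6 (-0.43 to -0.40). Slc7a8 over Slc3a2 had an exact permutation p under 0.05 in males without Ctrlm kidney 6, where the log2 difference was 0.26. Slc7a5 over Slc3a2 differed by 0.19 in males (exact p = 0.645) and by -0.07 in females (exact p = 0.920).

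**Figure D4:**
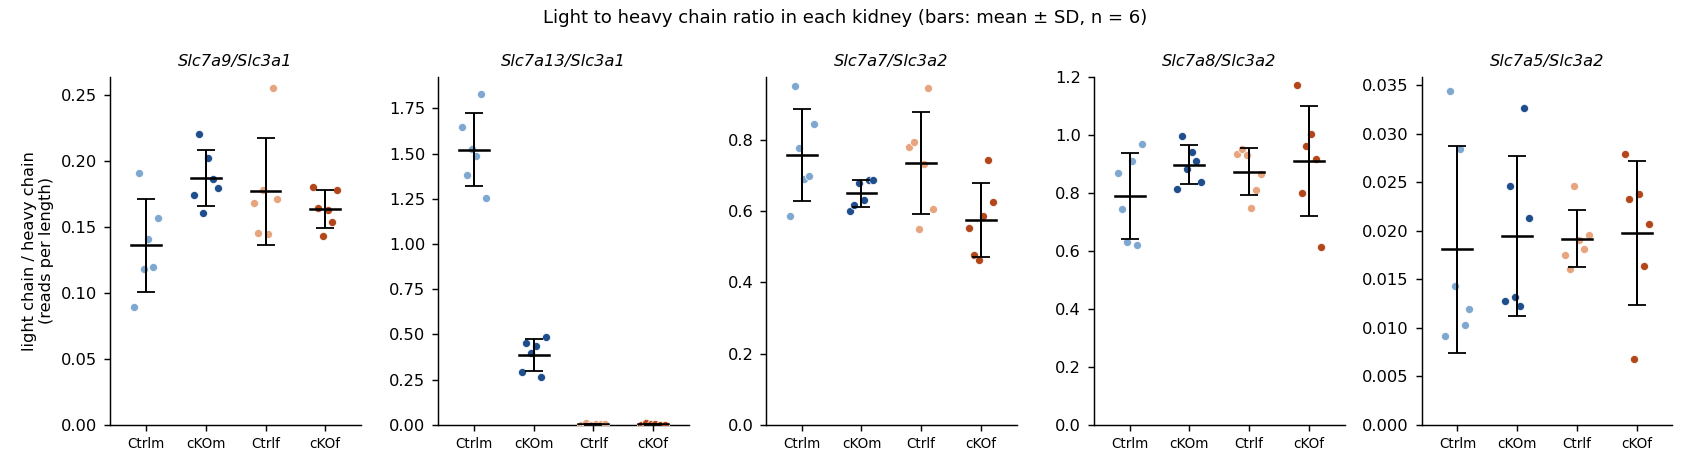
Ratio of each light chain to its heavy chain per kilobase of exon, on a linear axis, with 1 point per kidney in the 4 groups. Slc7a13 over Slc3a1 moves from a median of 1.51 in Ctrlm to 0.416 in cKOm, while the other ratios overlap between cKO and Ctrl in both sexes.

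The heavy chains moved in opposite directions in males and Slc7a8 rose with Slc3a2, so the RefSeq sequence (GRCm38.p6) of the 250 bases before a RefSeq start site of these 3 genes is shown. The window of Slc3a2 lies inside the gene's annotated span, at an internal start site, and that of Slc7a8 partly so. Promoters were matched for 5 of the 8 members, and those of Slc7a5, Slc7a12 and Slc7a13 were not. Capitals mark TATAAA, the letters of the TATA box, on either strand, with the overlapping pair joined.
Slc3a1 (chr17:85028097-85028346, plus strand): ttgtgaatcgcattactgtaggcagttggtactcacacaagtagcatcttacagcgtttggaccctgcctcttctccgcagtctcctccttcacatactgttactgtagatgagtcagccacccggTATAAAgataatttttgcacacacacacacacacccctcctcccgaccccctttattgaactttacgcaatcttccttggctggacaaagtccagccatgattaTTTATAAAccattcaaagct
Slc3a2 (chr19:8713898-8714147, minus strand): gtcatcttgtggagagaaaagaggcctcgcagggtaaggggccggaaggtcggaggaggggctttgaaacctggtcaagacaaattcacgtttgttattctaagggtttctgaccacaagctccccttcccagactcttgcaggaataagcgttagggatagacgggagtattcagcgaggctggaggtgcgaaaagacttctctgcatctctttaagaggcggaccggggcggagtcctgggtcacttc
Slc7a8 (chr14:54781887-54782136, minus strand): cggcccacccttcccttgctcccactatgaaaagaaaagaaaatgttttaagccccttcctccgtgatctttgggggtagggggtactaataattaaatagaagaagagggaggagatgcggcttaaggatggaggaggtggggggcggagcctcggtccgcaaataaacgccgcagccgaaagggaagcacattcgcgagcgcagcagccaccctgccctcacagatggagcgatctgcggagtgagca
The letters searched on both strands were TATAAA, the ATF4 response element core TGATGNAA, the antioxidant response element core TGACNNNGC, the HNF1 site letters GTTAAT and the androgen response element letters AGAACA. They occur in 12.4%, 3.45%, 10.2%, 6.43% and 16.1% of 32851 promoters of the same length. On the strand shown, TATAAA began 124 and 18 bases before the start of Slc3a1. The match that begins 20 bases before it reads TATAAA on the other strand and overlaps the one at 18. None of the 5 sets of letters was in the windows of Slc3a2 and Slc7a8. Of the matched members not shown, Slc7a7 held TGATGNAA, AGAACA and GTTAAT before some of its start sites, and Slc7a9 held none of the letters. A match is a description of letters and not a binding site.

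The proximal tubule segment that expresses Slc7a13 is the straight part, S3, and its 3 markers Atp11a, Slc5a8 and Rnf24 all fell in cKOm. Their summed level ran from 1480 to 2483 CPM (median 1888) in Ctrlm and from 766 to 1038 (median 882) in cKOm. In females it had a median of 804 in Ctrlf and 597 in cKOf, where 0 of the 3 were called. The female log2 fold changes were -1.02 for Rnf24 (edgeR adjusted p = 0.0827), -0.30 for Slc5a8 (0.204) and -0.26 for Atp11a (0.410). The test of the difference between the sexes called only Atp11a of these (-0.93, edgeR adjusted p = 0.0094). Between Ctrlm and Ctrlf, Atp11a (1.63) and Slc5a8 (1.24) were called higher in males and Rnf24 (-0.79) was not called. The log2 fold changes in males were -1.19 for Atp11a (edgeR adjusted p = 3.2e-06), -0.69 for Slc5a8 (6.2e-04) and -1.18 for Rnf24 (0.0408), each smaller in size than that of Slc7a13. Of the 3 S1 markers 0 were called in males, of the 2 S2 markers 1 was lower (Slc22a6, -0.65), and of the 3 genes of the whole proximal tubule 2 were lower (Lrp2 and Slc34a1, both -0.33). Of all genes tested, 4.14% were called higher and 4.9% lower in males. Among markers of other segments, Slc12a1 of the thick limb was higher in cKOm (0.33, adjusted p = 0.0116). Slc4a1, listed for the collecting duct and also a red cell gene, was lower in cKOm (-0.68, adjusted p = 0.0026) and in cKOf. Not called in males were Umod of the thick limb (0.12) and Aqp2 (0.09) and Scnn1g (0.10) of the collecting duct. The same held for Slc12a3 (0.30) and Pvalb (-0.62) of the distal convoluted tubule. The part of these levels in the fall of Slc7a13 and in the rises of Slc3a2, Slc7a8 and Slc7a12 was not tested.

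**Figure D5:**
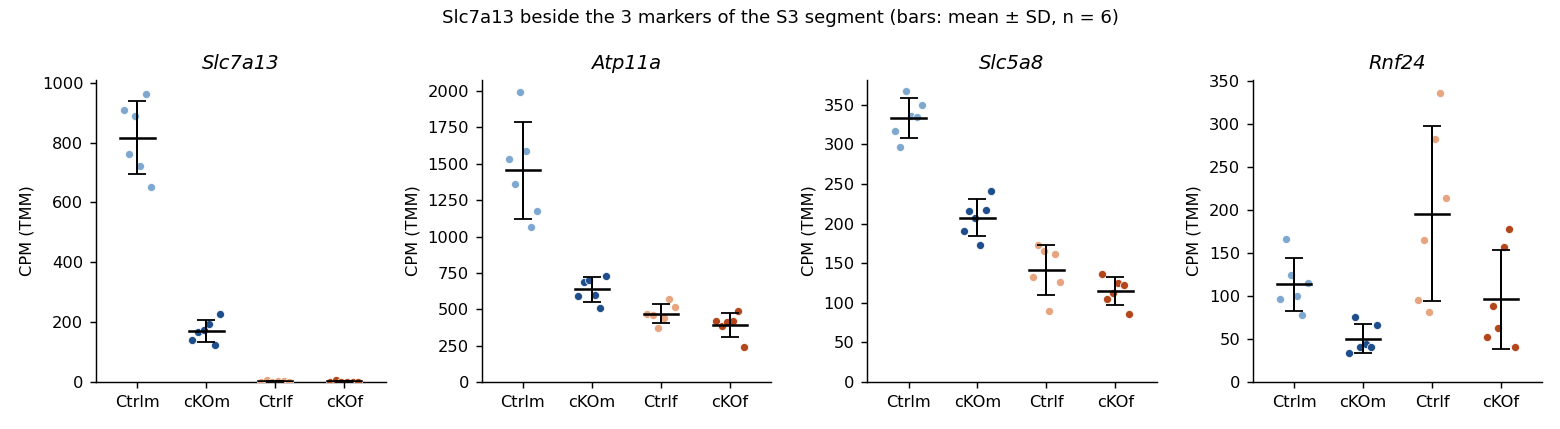
Slc7a13 beside the S3 markers Atp11a, Slc5a8 and Rnf24 in CPM, with 1 point per kidney and bars for the mean ± SD (n = 6 per group). All 4 genes are lower in cKOm than in Ctrlm, from a mean of 817 to 171 CPM for Slc7a13 and from 1454 to 636 for Atp11a.

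Other genes of amino acid transport were taken as lists. Of 9 further Slc7 genes 6 were tested, and in males 1 rose, Slc7a4 (log2 fold change 0.85, edgeR adjusted p = 0.0282), and 1 fell, Slc7a2 (-0.65, adjusted p = 0.0300), a cationic amino acid carrier. Of all genes tested, 4.14% were called higher and 4.9% lower in males, and 0.391% and 0.46% in females. Slc7a2 also fell in females (-0.80, adjusted p = 0.00553), from 15.3 ± 4.09 to 8.77 ± 1.16 CPM. The median of the list was 0.09 in males and -0.23 in females.

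Of 10 other carriers and accessory proteins of tubular amino acid transport, 1 rose and 3 fell in males and 0 were called in females. Over all genes tested the shares were 4.14% higher and 4.9% lower in males, and 0.851% called in females. Slc16a10 (TAT1), the basolateral aromatic amino acid carrier, rose from 64.0 ± 3.68 to 83.5 ± 6.07 CPM (0.38, edgeR adjusted p = 0.00328). Cltrn, which brings neutral amino acid carriers to the brush border, fell from 926 ± 183 to 624 ± 31.8 CPM (-0.57, adjusted p = 0.00274). Slc1a1, the apical glutamate and aspartate carrier, fell by 0.31 on the log2 scale, and Slc6a20b fell by 0.33. The median of the list was -0.28 in males, beside 0.01 over all genes.

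Of 14 genes of the ATF4 pathway, which induces amino acid transporters and serine synthesis when amino acids are short, 3 rose and 2 fell in males. Over all genes tested the shares were 4.14% higher and 4.9% lower in males, and 0.851% called in females. Asns, asparagine synthetase, rose from 4.14 ± 1.61 to 9.44 ± 2.55 CPM (1.19, edgeR adjusted p = 0.0018). Psat1 (0.59) and Phgdh (0.56), enzymes of serine synthesis, rose as well, and Psat1 was the 1 gene of the list called in females (0.52, adjusted p = 0.0127). Shmt2, the mitochondrial serine hydroxymethyltransferase, fell by 0.70 on the log2 scale, and Cth, the enzyme that makes cysteine from cystathionine, fell by 0.42. The median of the list was 0.07 in males and 0.05 in females, and 9 of the 14 were not called in males.

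Over the 24 kidneys, the 3 tested genes whose log2 CPM followed each member most closely are given as a description, with Pearson's r, since the points share groups, sexes and libraries. For Slc7a12 these were Prlr, the prolactin receptor (0.974), Plppr4 (0.953) and Tbc1d16 (0.933), and for Slc7a13 they were Ugt2b38 (0.979), Ugt2b37 (0.978) and Cyp2j13 (0.974). After each group's mean was taken off, r was 0.798, 0.676 and 0.515 for the first set and 0.618, 0.519 and 0.477 for the second. For Slc3a1 they were Napsa (0.899), Acy1 (0.889) and Cth (0.888), and for Slc3a2 Cpn1 (0.888), Lrp3 (0.886) and Anxa6 (0.880). For Slc7a8 they were Adcy6 and Limch1 (0.881 each) and Nfe2l1 (0.876). For Slc7a7 they were Umod (0.864), Slc1a5 (0.803) and Plpp5 (0.802), for Slc7a9 Tmem165 (0.862), Syngr1 (0.858) and Ist1 (0.850), and for Slc7a5 Rnf157 (0.779), Hspb7 (0.766) and Lxn (0.744). Cth, which follows Slc3a1, is also among the genes of the ATF4 list that fell in males.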

How the data were processed

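RNA of 24 whole kidneys was sequenced by the authors. Per the labels and the study's methods, reads were trimmed (Cutadapt 1.8 in the submitters' notes), aligned to GRCm38 with STAR 2.5.3a and counted per gene with HTSeq 0.9.1, and the deposited values are raw counts. The 5 closing rows of each file, which name no gene, were left out. They held reads on no feature (4.45% to 6.66% of all rows' counts), ambiguous reads (0.706% to 0.939%) and reads that were not unique (26.9% to 34.8%). Reads that map to several places are thus not in the counts.

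The filter kept genes that reached 1 CPM in 1 kidney or more, and they were tested with edgeR 4.0.16 (R 4.3.3; TMM, 1 mean per group, quasi-likelihood F test, all 24 kidneys). P-values were adjusted by Benjamini-Hochberg over the male and female tests together, over the 2 sex tests together and over the interaction alone, with a threshold of 0.05. Standard errors came from the log2 fold change and F. Ratios used a pseudocount of 0.5 counts. Limma 3.58.1 (voom) and DESeq2 1.42.0 were alternatives. In simulated counts where 200 genes were given a log2 change of 1, 158 were recovered with 6 false calls for males (15690 genes) and 165 with 5 for females (15712 genes). These counts were drawn from the fitted spread, with otherwise the same mean for a gene in all groups. They cannot tell how reliably smaller changes are called. The labels number the kidneys of a group as replicates and do not state that each came from another mouse. For the male transcripts, a figure legend of the study counts 6 cKOm and 6 Ctrlm mice. The p-values measure the spread between these samples. All 60 pairs of kidneys within groups differed beyond counting noise (chi-square per degree of freedom 9.93 to 100).

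The members and lists were chosen with earlier results of these data known. The text names the 8 members, Pex5, genes of the lists and the 3 genes most like each member. Coordinates and exon lengths are those of a GENCODE annotation of GRCm38, which held 55154 of the 55335 identifiers. Prepl and Oxa1l were added for their overlap. Intervals are 95% and come from the edgeR fit, whose estimate of spread uses the kidneys within groups. They hold only under that model. The floor of 3 counts covers counting error only.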

Additional observations from a re-analysis of the deposited data

Results flagged for a closer look

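In 160 sets of 6 kidneys (31 genes whose values are given, 5 ratios and 4 summed lists in each of the 4 groups), 16 had 1 kidney beyond Dixon's critical value of 0.625 for the gap over the range, a test that chance passes in about 1 of 20 sets. Ctrlf kidney 5 was the highest for Slc7a9 (210 CPM, the next 138), Slc7a12 (381, the next 237), Slc6a20b (251, the next 203) and the per-length ratio of Slc7a9 to Slc3a1 (0.255, the next 0.178). cKOf kidney 6 was the highest for Slc7a9 (137 CPM, the next 120). cKOf kidney 2 was the highest for Slc7a13 (5.42 CPM, the next 1.17) and for the ratio of Slc7a13 to Slc3a1 (0.00937, the next 0.00184). Ctrlm kidney 4 was the lowest for Slc7a4 (1.28 CPM, the next 2.74), and Ctrlf kidney 2 was the highest for Asns (15.2 CPM, the next 8.97). The hepatocyte genes Alb and Fgg were highest in cKOm kidney 4 (235 CPM, the next 34.5, and 26.3 CPM, the next 11.02), and Alb in Ctrlf kidney 2 (56.1 CPM, the next 30.7). The summed hepatocyte level was highest in cKOm kidney 4 (407 CPM, the next 82.6), the interferon level in Ctrlf kidney 1 (260 CPM, the next 103), and the leukocyte level in Ctrlf kidney 1 (55.6 CPM, the next 20.7) and cKOm kidney 3 (23.02 CPM, the next 17.7).

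The genotype effect differed between the sexes for 7 of the 55 genes named, by the edgeR test of the difference itself (2.31% of all genes tested). The 55 include genes chosen for following a member over these same kidneys, so their count cannot be set against that share. It was larger in males by 3.59 on the log2 scale for Slc7a12, and the male minus female difference was -0.66 for Shmt2 (adjusted p = 0.0201) and -0.93 for Atp11a (adjusted p = 0.0094). Among the genes most like a member it was 2.93 for Prlr (adjusted p = 9.4e-04), 1.41 for Plppr4 (9.0e-04), 0.77 for Tbc1d16 (2.2e-04) and -0.91 for Acy1 (0.0029). The first 3 were chosen for following Slc7a12 over these kidneys, and Acy1 for following Slc3a1.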

How the results depend on the processing

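The counts of members called were recomputed under 9 settings and with each of the 24 kidneys left out. In males 5 members were called, 3 with the hepatocyte covariate and 4 to 5 with a kidney left out. In females 0 were called, and 0 to 1 with a kidney left out. The difference between the sexes called 1 member, 2 by DESeq2 and 1 to 2 with a kidney left out. Between the sexes 6 members were called in controls (6 to 7) and 2 in cKO (2 to 3) with a kidney left out. The log2 ratio of Slc7a7 to Slc3a2 ran from -0.28 to -0.14 in males and from -0.43 to -0.27 in females with a kidney left out, and that of Slc7a8 to Slc3a2 from 0.14 to 0.26 in males. No called value changed direction. Kidneys with the same number are different mice, and the correlation of their deviations was over 0.1 in 1 of 12 pairs (-0.20 to 0.12). With the replicate number as a replicate block, 5 members were called in males, 0 in females, 1 for the difference between the sexes, 6 in controls and 2 in cKO, as without it. The count of all genes called in males was 1456 and fell to 862 with the hepatocyte covariate, and that in females was 137 and fell to 43 with adjustment within each test. For the difference between the sexes it was 372, and 574 by DESeq2, and between Ctrlm and Ctrlf it was 2519, and 1624 with the hepatocyte covariate. In females Slc7a13 rested on 2 to 136 reads per kidney.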
